A study of Mus musculus with 24 samples.

Results

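The lysosomal cathepsins are 10 of the 14159 genes measured in the quadriceps muscle of B6 and MRL mice. They were chosen by symbol, as Ctsa, Ctsb, Ctsc, Ctsd, Ctsh, Ctsk, Ctsl, Ctss, Ctsz and Lgmn, and all 10 were in the matrix and were analysed in all 24 libraries. Bulk RNA was sequenced from whole quadriceps of young female mice of the inbred strains C57BL/6 (B6) and MRL/MpJ (MRL), which heals ear punches without scar. In each strain, 3 libraries came from uninjured muscle and 3 each from muscle with a volumetric muscle loss (VML) injury filled with saline as the control injury, with extracellular matrix (ECM) decellularized before use, or with polyethylene (PE) powder. Muscle was collected 21 days after injury, and neither strain carried a transgene in any group. Levels are log2 CPM (CPM, the reads of a gene scaled to a common library size), as deposited by the authors. Differences between groups were tested with limma on all 24 libraries, and a gene was called where the Benjamini-Hochberg adjusted p, taken over all 14159 genes, was under 0.05.

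Cathepsins are proteases made as inactive precursors, sorted to the lysosome by mannose 6-phosphate receptors and activated by its acid. Phagocytes such as macrophages hold large amounts of them and use them to digest what they take up, to trim antigens for MHC class II and, when secreted, to cut matrix. Muscle fibres also contain lysosomes and need cathepsin D, B and L to turn over their own proteins. A cathepsin transcript in whole muscle can thus come from phagocytes, from muscle fibres or from other cells of the tissue. In bulk RNA, fewer cells of a type and less RNA per cell cannot be told apart, and the same holds for more cells and more RNA per cell.

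Many lysosomal genes carry the E-box CACGTG, often within the palindrome TCACGTGA, in the promoter, where transcription factors of the TFEB family can bind. The 250 bases before the annotated start were read from the RefSeq promoters of GRCm38.p6 for 8 of the 10 cathepsin genes, with 10 starts among them, and Ctsb and Ctsh had no entry. CACGTG was found in 4 of these 10 windows, those of Ctsd, Ctsl, 1 start of Ctsa and 1 start of Lgmn, against 7.93% of the 13335 promoters of all genes. The longer palindrome, which contains the E-box, was in 2 of the 10, those of Ctsa and Ctsd, against 1.37% of all promoters. TGANTCA, the letters of an AP-1 site, was in 0 of the 10 and in 4.87% of all. Both strands were searched. The windows of Ctsa and Ctsd are shown because they hold the palindrome, and those of Ctsk and Ctss because they hold none of the 3 motifs and belong to the genes that differed most between treatments. Each is written 5′ to 3′ on the strand of the gene, and capitals mark CACGTG or TCACGTGA.
Ctsa, chr2:164833523-164833772, plus strand: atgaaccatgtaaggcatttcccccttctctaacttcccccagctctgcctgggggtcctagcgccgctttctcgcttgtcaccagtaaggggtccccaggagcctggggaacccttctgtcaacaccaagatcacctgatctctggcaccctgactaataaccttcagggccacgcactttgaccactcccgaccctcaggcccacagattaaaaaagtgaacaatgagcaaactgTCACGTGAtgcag
Ctsd, chr7:142387828-142388077, minus strand: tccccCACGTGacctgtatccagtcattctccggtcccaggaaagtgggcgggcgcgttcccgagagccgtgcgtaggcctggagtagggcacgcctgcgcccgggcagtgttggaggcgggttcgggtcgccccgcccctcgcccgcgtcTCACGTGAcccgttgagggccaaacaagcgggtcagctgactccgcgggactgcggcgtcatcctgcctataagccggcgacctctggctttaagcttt
Ctsk, chr3:95498960-95499209, plus strand: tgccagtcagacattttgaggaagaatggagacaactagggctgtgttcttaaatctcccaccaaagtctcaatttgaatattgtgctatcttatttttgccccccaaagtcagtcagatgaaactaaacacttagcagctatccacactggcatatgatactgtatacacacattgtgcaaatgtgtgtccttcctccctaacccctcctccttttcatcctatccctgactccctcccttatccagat
Ctss, chr3:95526536-95526785, plus strand: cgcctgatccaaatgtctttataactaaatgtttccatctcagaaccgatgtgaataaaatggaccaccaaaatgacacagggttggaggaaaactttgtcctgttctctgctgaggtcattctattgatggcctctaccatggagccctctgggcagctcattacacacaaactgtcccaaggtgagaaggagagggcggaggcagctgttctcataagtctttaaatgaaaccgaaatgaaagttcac
The palindrome begins at -13 from the start in Ctsa and at -99 in Ctsd, whose window holds a second E-box further from the start. A match of letters is not a binding site.

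1 library stood apart from its group. In PE-treated MRL mice, replicate 2 correlated with replicates 1 and 3 at Pearson's r = 0.812 and 0.827 across all genes, while no other pair of libraries in a group was under 0.904. Its 10 muscle fibre markers summed to 38208 CPM, against 146144 and 148996 CPM in replicates 1 and 3, and its 13 macrophage markers to 4994 CPM, against 345 and 368 CPM. Fibroblast markers were also high in it, at 13798 CPM against 2549 and 1792 CPM, and adipocyte markers low, at 220 CPM against 3247 and 1974 CPM. Its share of muscle, infiltrate and fat in the tissue taken was not tested. Because all groups shared 1 estimate of the spread, this library also widened the errors of comparisons it was not part of, and results are given with and without it where it matters. In the uninjured libraries muscle fibre markers summed to between 159120 and 246712 CPM, which matches the label of the tissue.

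With PE, every cathepsin gene was higher in B6 mice than in uninjured B6 muscle. All 10 were called, against 24.8% of all genes, with log2 fold changes between 1.03 and 6.82 and a median of 2.66, where the median of all genes was 0.02. Against the control injury 9 of the 10 were called as higher, against 5.97% of all genes, and the median log2 fold change was 2.34. The lowest PE library was above the highest saline library for all 10, as it was for 18.7% of all genes. The plot of cathepsin levels per library shows this separation and the high MRL library.

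**Figure D1:**
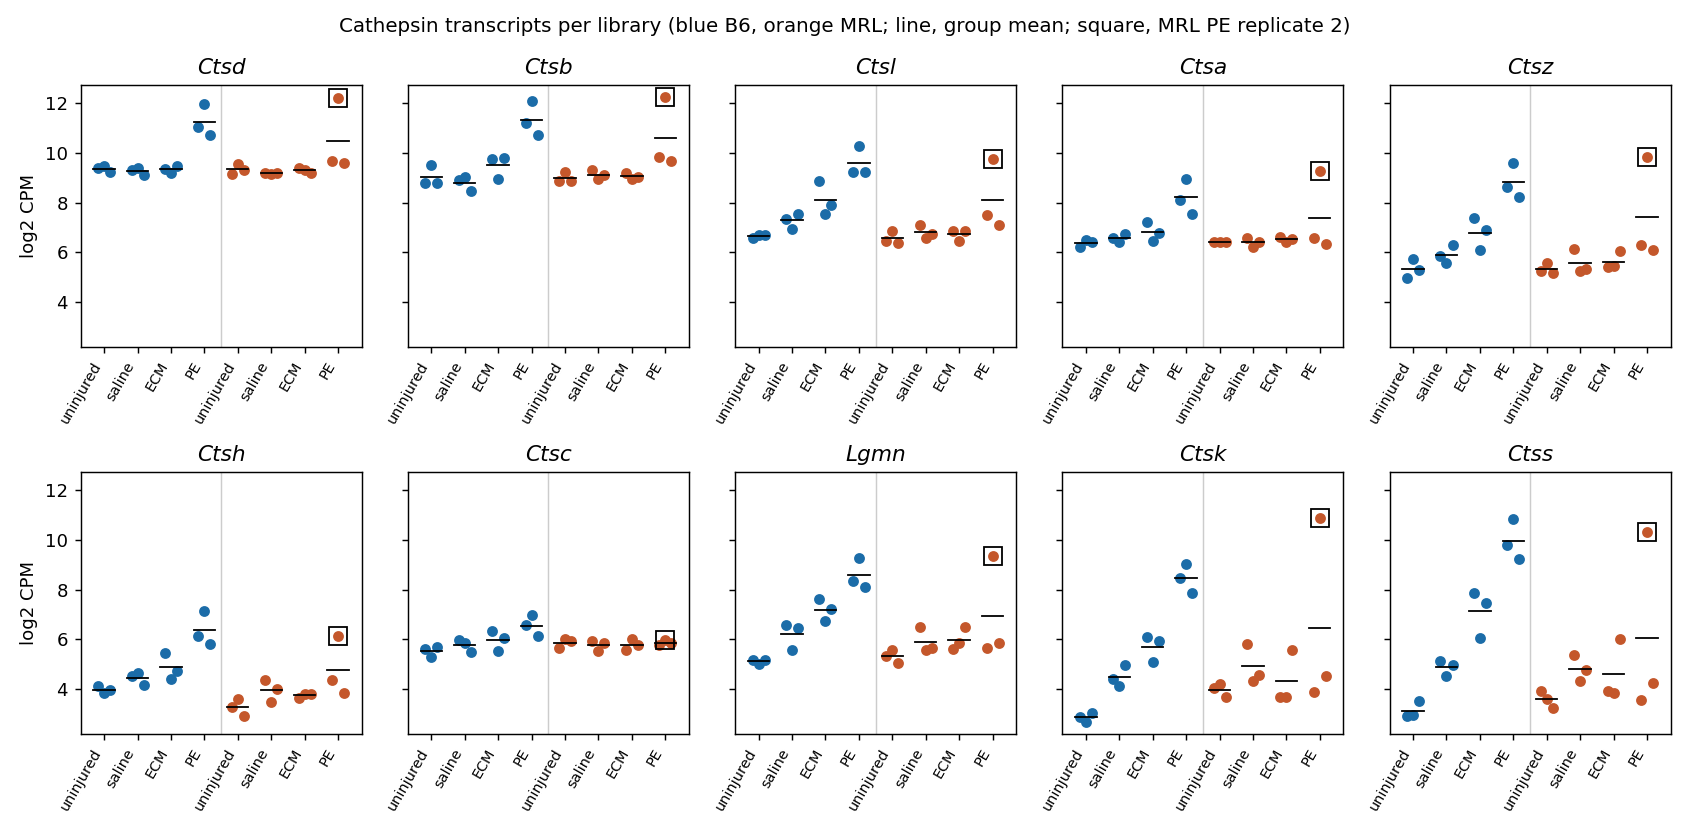
Level of each cathepsin gene (vertical axis, log2 CPM) in the 24 libraries, by strain and treatment (horizontal axis), with 1 point per library and a line at the mean of each group of 3. The 3 B6 PE libraries lie above all B6 saline libraries for every gene, and in MRL mice the PE mean rests on replicate 2, marked by a square.

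Cathepsin S, a cysteine protease that stays active at neutral pH and cuts the invariant chain of MHC class II, differed most (chromosome 3, 95433963 to 95463717, plus strand, GRCm39, as for all positions of genes). In B6 mice Ctss was at 2.90, 2.97 and 3.51 log2 CPM in uninjured muscle, at 5.11, 4.54 and 4.97 with saline, at 7.86, 6.04 and 7.47 with ECM and at 9.79, 10.83 and 9.21 with PE. The 4 groups did not overlap and stood in that order. The log2 fold change of PE was 6.82 ± 1.11 (SE, 113-fold, limma adjusted p = 0.0018) against uninjured muscle and 5.07 ± 1.11 (33.6-fold, adjusted p = 0.022) against saline.

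Ctsk encodes cathepsin K, which cleaves the triple helix of collagen and is the main protease of osteoclasts. It is the upstream neighbour of Ctss (chromosome 3, 95406178 to 95416732, plus strand), with 17230 bases and no protein-coding gene between them. Its levels in B6 mice were 2.86, 2.68 and 3.02 log2 CPM in uninjured muscle, 4.42, 4.12 and 4.96 with saline, 6.07, 5.09 and 5.93 with ECM and 8.47, 9.04 and 7.86 with PE. As for Ctss, these groups did not overlap. PE differed from uninjured muscle by 5.60 ± 1.11 (48.5-fold, limma adjusted p = 0.0036) and from saline by 3.96 ± 1.11 (15.5-fold, adjusted p = 0.043).

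Cathepsins L and B are the abundant cysteine endopeptidases of most lysosomes, and B can also trim peptides from the carboxyl end. Ctsl (chromosome 13, 64507151 to 64518704, minus strand) was at 6.57, 6.72 and 6.69 log2 CPM in uninjured B6 muscle, 7.36, 6.96 and 7.54 with saline, 8.87, 7.55 and 7.89 with ECM and 9.22, 10.30 and 9.24 with PE. PE was higher than saline by 2.30 ± 0.48 (limma adjusted p = 0.020). Ctsb (chromosome 14, 63358384 to 63383372, plus strand) was at 8.79, 9.50 and 8.79 in uninjured muscle, 8.93, 9.02 and 8.48 with saline, 9.76, 8.95 and 9.79 with ECM and 11.20, 12.10 and 10.72 with PE. The first 3 groups overlapped for Ctsb and only PE stood clear of them, by 2.53 ± 0.48 over saline (adjusted p = 0.017).

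Ctsd encodes cathepsin D, the aspartic protease of the lysosome (chromosome 7, 141929646 to 141941775, minus strand). Its level was nearly flat in B6 mice until PE was given, at 9.38, 9.49 and 9.24 log2 CPM in uninjured muscle, 9.33, 9.39 and 9.12 with saline and 9.35, 9.21 and 9.46 with ECM, and then 11.05, 11.97 and 10.72 with PE. The difference of PE from saline was 1.97 ± 0.45 (limma adjusted p = 0.024). Ctsa encodes cathepsin A, a serine carboxypeptidase that also protects beta-galactosidase and neuraminidase from degradation (chromosome 2, 164674778 to 164682961, plus strand). It was at 6.21, 6.49 and 6.43 in uninjured muscle, 6.58, 6.44 and 6.76 with saline, 7.21, 6.46 and 6.80 with ECM and 8.13, 8.97 and 7.54 with PE. It was the 1 gene of the 10 not called between PE and saline, at 1.62 ± 0.49 (adjusted p = 0.057), and it was called between PE and uninjured muscle, at 1.84 ± 0.49 (adjusted p = 0.015).

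Among the exopeptidases, Ctsz, a carboxypeptidase also known as cathepsin X (chromosome 2, 174267304 to 174280832, minus strand), moved furthest. It was at 4.96, 5.74 and 5.30 log2 CPM in uninjured B6 muscle, 5.85, 5.56 and 6.30 with saline, 7.40, 6.08 and 6.92 with ECM and 8.65, 9.59 and 8.25 with PE, a rise over saline of 2.93 ± 0.65 (limma adjusted p = 0.023). Ctsh, an aminopeptidase (chromosome 9, 89936205 to 89958148, plus strand), was lower in level, at 4.12, 3.85 and 3.95 in uninjured muscle, 4.54, 4.66 and 4.14 with saline, 5.44, 4.42 and 4.74 with ECM and 6.14, 7.15 and 5.81 with PE. PE exceeded saline by 1.91 ± 0.44 (adjusted p = 0.024).

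Ctsc, or dipeptidyl peptidase I (chromosome 7, 87927092 to 87960096, plus strand), activates the serine proteases of neutrophil, mast cell and lymphocyte granules. It changed least of the 10, from 5.59, 5.30 and 5.67 log2 CPM in uninjured muscle and 5.98, 5.83 and 5.48 with saline to 6.35, 5.53 and 6.04 with ECM and 6.56, 6.96 and 6.13 with PE. Its standard error was also the smallest of the 10, and a difference between PE and saline of 0.79 ± 0.22 was called (limma adjusted p = 0.041). Lgmn encodes legumain, which cuts after asparagine and processes other cathepsins into their mature chains (chromosome 12, 102359122 to 102414682, minus strand). It was at 5.18, 5.01 and 5.16 in uninjured muscle, 6.57, 5.58 and 6.46 with saline, 7.60, 6.73 and 7.21 with ECM and 8.36, 9.28 and 8.12 with PE, and PE was higher than saline by 2.38 ± 0.63 (adjusted p = 0.036). Like Ctss, Ctsk and Ctsl, Lgmn stood in the order uninjured, saline, ECM and PE with no overlap between groups, which 0.403% of all genes did.

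The call against the control injury depended on single libraries, while the differences did not change direction. Without replicate 1 or 2 of B6 PE, or replicate 2 or 3 of B6 saline, 0 of the 10 were called, and without replicate 1 of B6 saline 1 was called, while the number of all genes called was between 2 and 126. Without replicate 2 of MRL PE all 10 were called, but the share of all genes in that fit is not given here. This count is therefore not read as a trait of the cathepsins. Against uninjured muscle, between 8 and 10 were called whichever of the 24 libraries was left out, a range given without the shares of all genes in those fits. Ctsa shares exon sequence with Neurl2 and Pltp, Ctsb with Fdft1 and Ctsz with Nelfcd, on the opposite strand and all in the matrix. Whether the libraries kept strand is not given in the sources used here. The kallisto commands of the authors set no strand option, so strand was not used to assign reads. Reads of these pairs could therefore have been divided between them.

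ECM gave smaller differences in B6 mice. Against the control injury all 10 cathepsin genes were higher on average, with a median log2 fold change of 0.75, but limma called 0 of them and 0 had an unadjusted p under 0.05, while 0.0283% of all genes were called. The largest difference was that of Ctss, at 2.25 ± 1.11 (adjusted p = 1.00), and the smallest that of Ctsd, at 0.06. The 3 ECM libraries lay above the 3 saline libraries for 4 of the 10 genes, Ctsk, Ctsl, Ctss and Lgmn, which 4.53% of all genes did. Against uninjured muscle the median was 1.17 and limma called 0 of the 10, of which 5 had an unadjusted p under 0.05, with 0.424% of all genes called. Here Ctss was the furthest higher, at 4.0 ± 1.11 (16.0-fold, adjusted p = 0.11), and 6 of the 10 genes did not overlap, against 17.7% of all genes. Without replicate 2 of MRL PE, whose spread enters this fit, 5 were called, with 3.74% of all genes, which were Ctss (adjusted p = 0.00054), Lgmn (0.0027), Ctsk (0.0032), Ctsl (0.015) and Ctsz (0.030). Within the ECM group, replicate 2 was the lowest of the 3 for all 10 genes.

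Between the implants, all 10 genes were higher with PE than with ECM in B6 mice, by 0.58 to 2.82 log2 and by a median of 1.67. For 9 of the 10 all PE libraries lay above all ECM libraries, against 19.5% of all genes, and the groups overlapped for Ctsc. limma called 0 of the 10, although all 10 had an unadjusted p under 0.05, and called 0.226% of all genes. The difference of Ctss was 2.82 ± 1.11 (adjusted p = 0.17). Without replicate 2 of MRL PE 9 of the 10 and 11.5% of all genes were called, with Ctsd at 1.91 ± 0.22 (adjusted p = 4.7e-05) and Ctsb at 1.84 ± 0.30 (adjusted p = 0.00055). Without replicate 1 or 3 of MRL PE 1 was called, a count given without the share of all genes. PE against ECM and PE against saline share the PE libraries, so that these results are not independent of each other.

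For the control injury alone no cathepsin was called against uninjured B6 muscle. limma called 0 of the 10, 0 had an unadjusted p under 0.05, and it called 0% of all genes, of which 1751 had an unadjusted p under 0.05. Ctss was the furthest higher, at 1.75 ± 1.11 (adjusted p = 0.52). Saline libraries lay above uninjured libraries for 5 of the 10, Ctsh, Ctsk, Ctsl, Ctss and Lgmn, against 8.59% of all genes, while Ctsb and Ctsd differed by -0.22 and -0.09.

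Without injury and with saline, no cathepsin was called between MRL and B6 mice over all 24 libraries. Between uninjured MRL and B6 muscle limma called 0 of the 10 and 0 had an unadjusted p under 0.05, with 2.60% of all genes called, and the difference furthest from 0 was that of Ctsk, at 1.11 ± 1.11 (adjusted p = 0.82). With only these groups in the fit Ctsk was called (adjusted p = 0.045), with 2.06% of all genes. Ctsk was at 4.03, 4.20 and 3.66 log2 CPM in uninjured MRL muscle, above the B6 libraries, and Ctsh at 3.29, 3.60 and 2.92, below them. With saline limma called 0 of the 10 between strains, again with 0 at an unadjusted p under 0.05, and 2.51% of all genes, and the largest difference was -0.51 ± 0.44 for Ctsh (adjusted p = 0.67). Within MRL mice, limma called 0 of the 10 between saline and uninjured muscle (0 at an unadjusted p under 0.05, and 0% of all genes), where Ctss differed most, by 1.23 ± 1.11 (adjusted p = 1.00). MRL saline libraries lay above uninjured MRL libraries for Ctsk, Ctss and Lgmn, and the other members overlapped. The share of all genes without overlap was not counted in MRL mice. The standard error of 1.11 for Ctss and Ctsk leaves room for differences between strains of about the size of the saline response.

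With ECM, no cathepsin was called in MRL mice against saline or uninjured muscle. limma called 0 of the 10 against saline (0 at an unadjusted p under 0.05, 0.00706% of all genes called), where 5 genes were higher and 5 lower, and 0 against uninjured muscle (0 at an unadjusted p under 0.05, 0.0141% of all genes). The largest differences were -0.60 ± 1.11 for Ctsk against saline and 1.0 ± 1.11 for Ctss against uninjured muscle (adjusted p = 1.00 for both). All MRL ECM libraries lay above all uninjured MRL libraries for Ctsa, Ctsh and Lgmn, while the other members overlapped, and every member overlapped between ECM and saline. The share of all genes without overlap was not counted for these groups. Ctss was at 3.92 and 3.85 log2 CPM in replicates 1 and 2 and at 6.00 in replicate 3, which was also the highest for Ctsk, at 5.57 against 3.68 and 3.67. Compared with ECM-treated B6 mice all 10 genes were lower in MRL mice, at a median difference of -1.14 log2, and for Ctsh, Ctsl, Ctss, Ctsz and Lgmn the strains did not overlap, while 12.8% of all genes were lower in MRL mice without overlap. limma called 0 of the 10, of which 3 had an unadjusted p under 0.05, and 2.66% of all genes. The difference of Ctss was -2.53 ± 1.11 (adjusted p = 0.33). Without replicate 2 of MRL PE 4.24% of all genes were called, and 4 of the 10 as lower, Ctss (adjusted p = 0.0070), Ctsl (0.011), Lgmn (0.046) and Ctsh (0.048).

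With PE, the MRL mice were not alike. Ctss was at 3.55 and 4.23 log2 CPM in replicates 1 and 3, within or close to the uninjured range of 3.25 to 3.93, and at 10.32 in replicate 2. Ctsk was at 3.89 and 4.53 in replicates 1 and 3 and at 10.88 in replicate 2, which was above every B6 library. Replicate 2 exceeded the mean of the others 102-fold for Ctsk, 85.8-fold for Ctss, 12.2-fold for Ctsz, 11.9-fold for Lgmn and between 4.11-fold and 7.03-fold for Ctsa, Ctsb, Ctsd, Ctsh and Ctsl. Ctsc was the exception, at 5.98 log2 CPM against 5.75 and 5.84, a ratio of 1.14. In replicate 2, 6 of the genes (Ctsa, Ctsb, Ctsd, Ctsk, Ctsz and Lgmn) were above all B6 PE libraries, 3 (Ctsh, Ctsl and Ctss) lay within their range, and Ctsc was below them. How many of all genes lay outside the B6 PE range in this library was not counted. These positions describe the library and are not a trait of the cathepsins. In replicates 1 and 3 the mean differed from that of uninjured MRL muscle by between -0.06 for Ctsc and 0.90 for Ctsz on the log2 scale. Both replicates were above all uninjured MRL libraries for 6 of the 10, Ctsb, Ctsd, Ctsh, Ctsl, Ctsz and Lgmn, as they were for 26.2% of all genes. Ctsz was at 6.32 and 6.12 against 5.24, 5.58 and 5.16, and Ctsl at 7.51 and 7.09 against 6.47, 6.85 and 6.38.

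The MRL comparisons turned on replicate 2. Against uninjured MRL muscle 4 of the 10 were called as higher, against 9.73% of all genes, with log2 fold changes of 1.61 ± 0.48 for Ctsb (limma adjusted p = 0.047), 1.5 ± 0.44 for Ctsh (0.047), 1.56 ± 0.48 for Ctsl (0.049) and 2.10 ± 0.65 for Ctsz (0.049). Without replicate 2, 0 were called, with 0.00706% of all genes, and without replicate 1 or 3 of MRL PE 8 and 9 were, with 20.3% and 24.2% of all genes. Leaving out 1 of the other 21 libraries gave between 0 and 4, a range given without the shares of all genes. Ctss and Ctsk had larger differences, 2.45 ± 1.11 and 2.47 ± 1.11, and were not called (adjusted p = 0.12 for both). Against the control injury limma called 0 of the 10, with 4 at an unadjusted p under 0.05 and 0% of all genes called. Ctsz differed most, by 1.85 ± 0.65 (adjusted p = 0.13), and the difference of Ctss was 1.22 ± 1.11 (adjusted p = 0.50), which became -0.92 ± 0.59 without replicate 2 (adjusted p = 0.53). Against ECM limma also called 0, with 5 at an unadjusted p under 0.05 and 0% of all genes called, or 5 and 12.3% without replicate 3. Ctsk differed from ECM by 2.13 ± 1.11 (adjusted p = 0.21), which became -0.10 without replicate 2. Every MRL PE library lay above every MRL ECM library for Ctsb, Ctsd, Ctsh, Ctsl and Ctsz, and above every MRL saline library for Ctsb and Ctsd. The other members overlapped, and the share of all genes without overlap was not counted here.

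Between strains, all 10 cathepsins were lower in PE-treated MRL than B6 mice on average, with log2 fold changes between -3.91 and -0.69 and a median of -1.43. limma called 0 of the 10, with 6 at an unadjusted p under 0.05, and 3.35% of all genes. Ctss was at -3.91 ± 1.11 (adjusted p = 0.058). Residuals of libraries with the same replicate number correlated at 0.105, 0.532 and 0.439 between these groups, a hint from the data and not a known pairing. With the replicate as a block Ctsh was called as lower (-1.60 ± 0.42, limma adjusted p = 0.049, against 0.051 without the block), a call that rests on this hint. Without replicate 2 of MRL PE all 10 were called as lower, with 24.6% of all genes called in either direction, and Ctss was at -6.05 ± 0.59 (adjusted p = 9.2e-07), Ctsk at -4.25 ± 0.52 (adjusted p = 1.1e-05) and Lgmn at -2.83 ± 0.37 (adjusted p = 2.3e-05), with 2 MRL libraries in the group. Without replicate 3 of B6 PE 2 were called, a count given without the share of all genes. Since leaving out a library by its outcome selects the result, both values are given and neither is preferred.

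The difference between the strains in the response itself was tested as an interaction. For PE against saline limma called 0 of the 10, with 2 at an unadjusted p under 0.05 and 0% of all genes called, and the interaction of Ctss was -3.85 ± 1.57 (adjusted p = 0.99). For ECM against saline it called 0, with 0 at an unadjusted p under 0.05 and 0% of all genes called, and Ctss was at -2.47 ± 1.57 (adjusted p = 1.00). For PE against ECM it called 0, with 0 at an unadjusted p under 0.05 and 0% of all genes called, and Ctss was at -1.38 ± 1.57 (adjusted p = 1.00). Without replicate 2 of MRL PE, 9 of the 10 were called for PE against saline (4.41% of all genes), 0 for ECM against saline (0%) and 3 for PE against ECM (1.90%), all with a smaller response in MRL mice. The plot of differences between treatments sets the strains side by side.

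**Figure D2:**
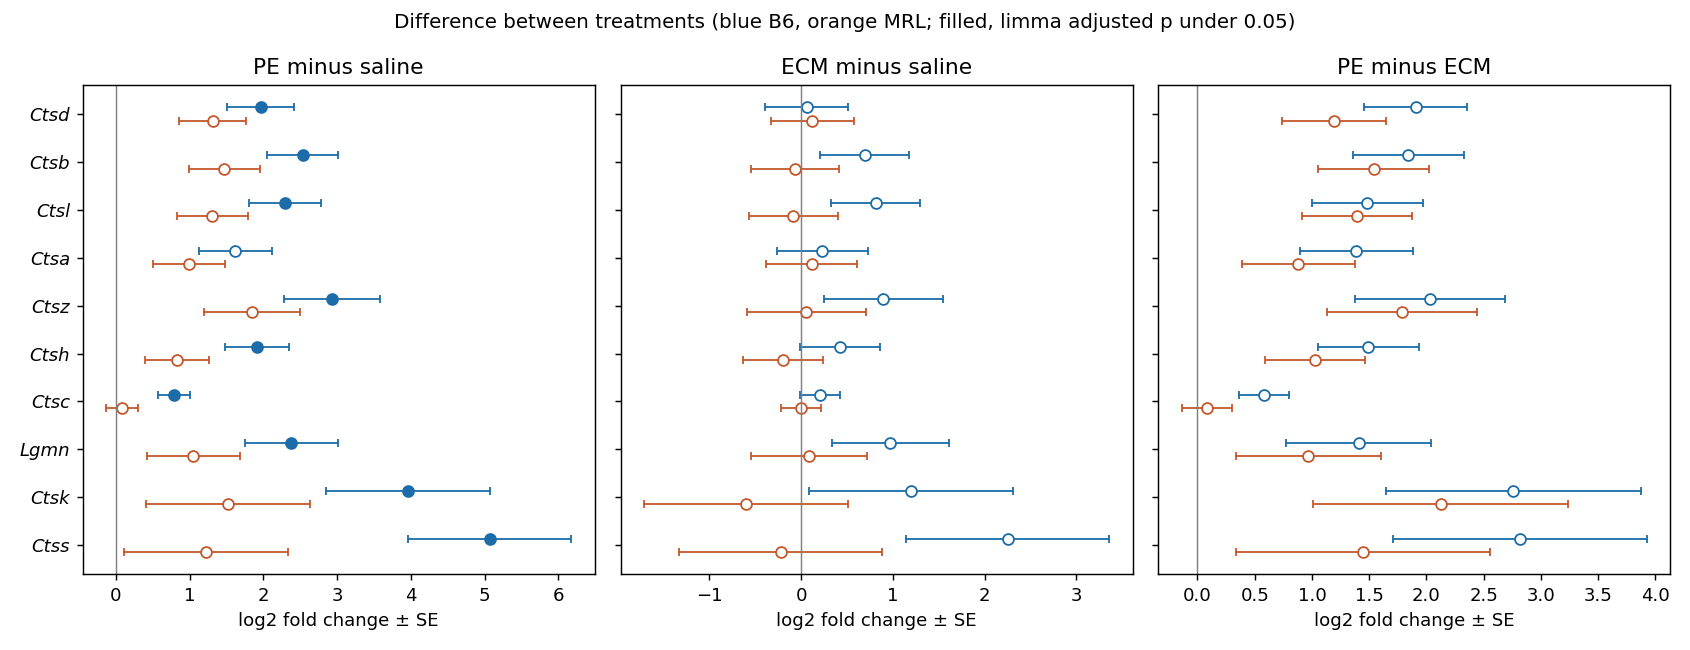
Difference between treatments for each cathepsin gene (horizontal axis, log2 fold change with its standard error, from limma over all 24 libraries) in B6 (blue) and MRL mice (orange), with filled points at an adjusted p under 0.05. The 9 filled points are those of PE against saline in B6 mice, and Ctss and Ctsk have the widest errors.

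Summed over the 10 genes, cathepsin transcripts made up a small part of the library in uninjured muscle and a larger one with PE. The sum was between 1396 and 1792 CPM in uninjured B6 muscle, between 1499 and 1682 with saline and between 1703 and 2919 with ECM, so that saline overlapped uninjured muscle and ECM lay above saline. With PE it was 7472, 14179 and 5699 CPM, or 0.888%, 1.90% and 0.660% of the library, against 0.124% to 0.175% in uninjured muscle. In MRL mice it was between 1387 and 1753 CPM in uninjured muscle, 1422 and 1802 with saline and 1512 and 1659 with ECM, 3 overlapping ranges. With PE it was 2262 and 2052 CPM in replicates 1 and 3, above all other MRL libraries, and 15998 CPM, or 2.18% of the library, in replicate 2.

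The mixture of cathepsins also differed. Levels of different genes were compared per length, as CPM divided by the length of the main transcript in kilobases, and given as a share of the sum over the 10. In uninjured B6 muscle Ctsd took 59.7% ± 2.76 (SD, n = 3) and Ctsb 21.2% ± 3.95. They were followed by Ctsa (4.33% ± 0.47), Ctsc (3.32% ± 0.757) and Ctsl (3.30% ± 0.312), where Ctsc and Ctsl did not differ beyond their spread. Ctsz (2.28%), Lgmn (2.07%) and Ctsh (1.85%) lay within each other's spread, and Ctss (1.25% ± 0.409) and Ctsk (0.736% ± 0.158) came last. With PE, Ctsd took 36.4% ± 1.33, then came Ctss with 23% ± 2.11, Ctsb with 17.3% ± 0.351 and Ctsk with 5.92% ± 0.732. Ctsz (4.23% ± 0.0351) lay above Lgmn (3.78% ± 0.286) without overlap, and Ctsl (4.17% ± 0.666) was not apart from either beyond its spread. Ctsc came last with 1.12% ± 0.217. Ctss was thus among the lowest of the 10 in uninjured muscle and next to Ctsd with PE, and its share with ECM was between 8.23% and 17.4%, between those with saline (3.02% to 4.45%) and with PE (20.8% to 25.0%).

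The highest MRL library had another mixture. In replicate 2 of MRL PE, Ctsk held 16.4% and Ctss 15.5% per length, while Ctsk held 5.22% to 6.68% in the B6 PE libraries and Ctss more than 20% in each. Ctsd (37.0%) and Ctsb (17.0%) were near their B6 PE shares, and Ctsc (0.388%), Ctsh (0.705%), Ctsl (2.46%) and Lgmn (3.31%) were below them. With 1 such library this difference has no replicate. In replicates 1 and 3 of MRL PE, Ctsd held 53.4% and 53.9% and Ctsb 26.8% and 25.4%, while in uninjured MRL muscle Ctsd held up to 60.7% and Ctsb 19.5% to 21.1%.

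**Figure D3:**
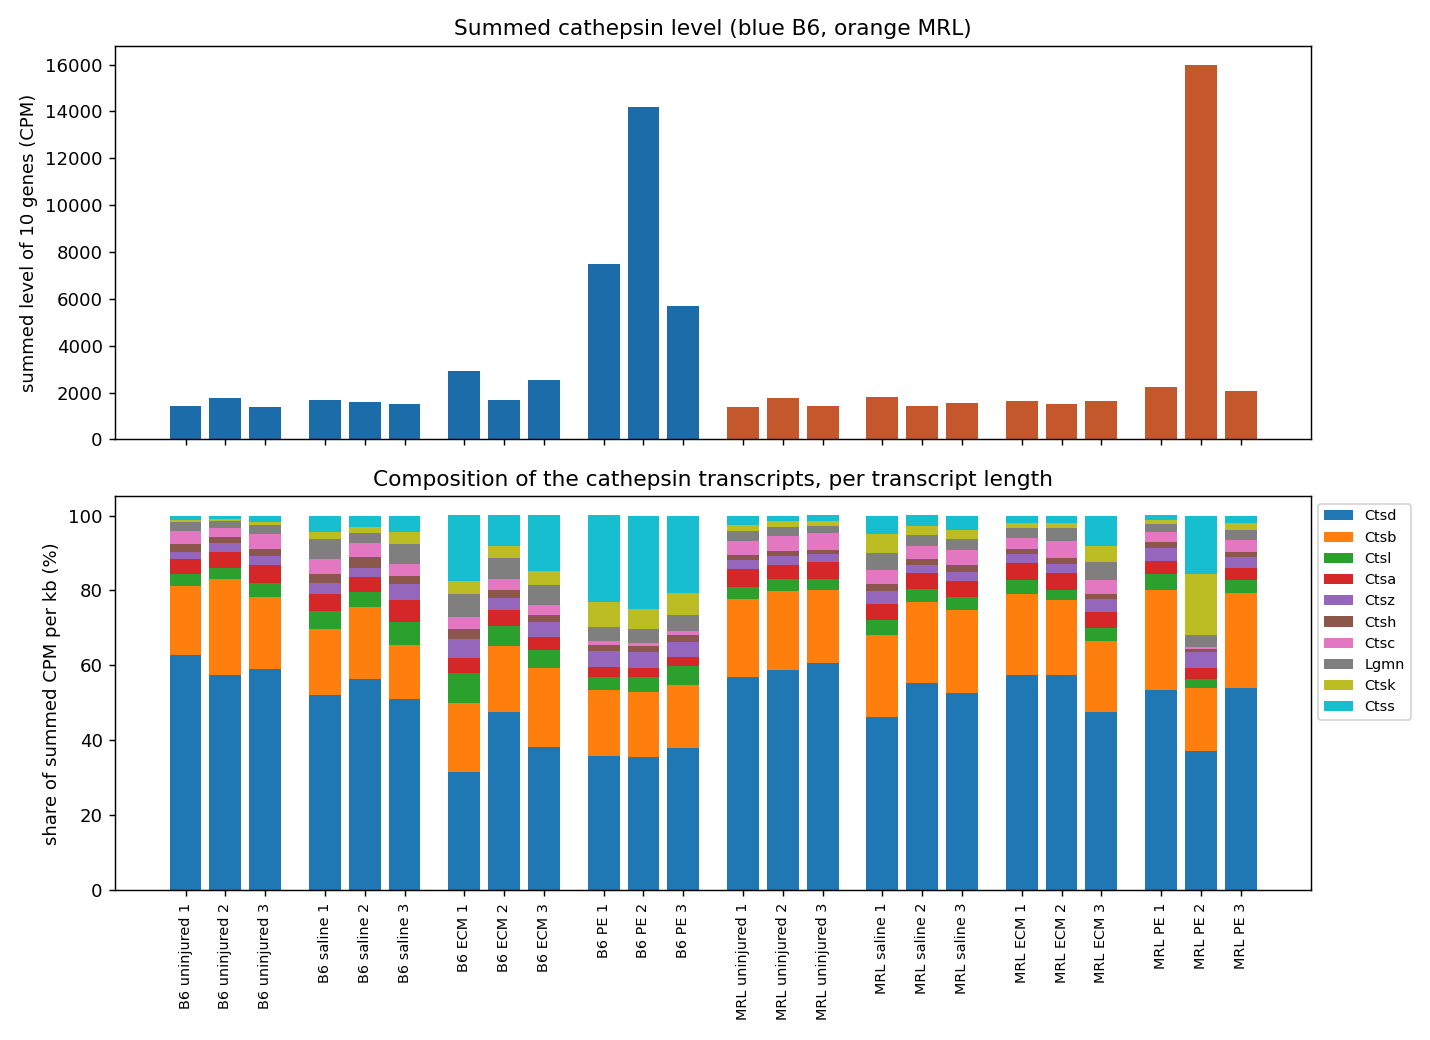
Summed level of the 10 cathepsin genes in each library (upper panel, CPM) and the share of each gene in the sum per kilobase of transcript (lower panel, percent). The upper bars are tall in the 3 B6 PE libraries and in MRL PE replicate 2, and the share of Ctss grows from uninjured to PE in B6 mice.

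Across the 24 libraries the cathepsins varied together, as described by Pearson's r of log2 CPM without a test, since the libraries of a group share a treatment. Over the 45 pairs of genes r was between 0.652 and 0.983, with a median of 0.911. The 10 genes most like the mean of the cathepsins were Cd68 (r = 0.991), Ncf1, Sirpa, Cotl1, Cyba, Lcp1, Efhd2, Hexa, Igsf6 and Syk (r = 0.984). Cd68 encodes a lysosomal membrane glycoprotein of macrophages, Ncf1 and Cyba subunits of the phagocyte NADPH oxidase, Sirpa the receptor of the CD47 signal, and Hexa a lysosomal hexosaminidase. Lgals3, or galectin 3, was the gene most like Ctss (r = 0.986), Ctsk (0.973) and Lgmn (0.987), and Emr1, the older symbol of the macrophage marker F4/80, the gene most like Ctsh (0.974). The most alike were Fcer1g for Ctsl (0.979), Sirpa for Ctsz (0.990), Actb for Ctsa (0.982), Cndp2 for Ctsb (0.984) and Hs1bp3 for Ctsd (0.979). Ctsc had the weakest best match, Gm13251 at 0.869.

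Macrophage markers moved with the cathepsins. The matrix held 13 of the 14 listed, the other one, F4/80, being present under its older symbol and left out of the sums. Their summed level in B6 mice was between 201 and 277 CPM in uninjured muscle, 397 and 434 with saline, 351 and 1092 with ECM and 1682 and 5897 with PE. In MRL mice it was between 129 and 312, 215 and 578, 265 and 349, and 345 and 4994 CPM in the same order. Lyz2 alone was at 963 to 3718 CPM in the B6 PE libraries, a large part of these sums. Between PE and ECM in B6 mice 11 of the 13 were higher on average and 0 were called. Mrc1 was at a median of 67.0 CPM with PE and 93.9 CPM with ECM. Between PE and saline in B6 mice 7 of the 13 were called and higher, against 5.97% of all genes called, such as Cd68 (4.52 ± 0.95, limma adjusted p = 0.020) and Itgam, the CD11b integrin chain (4.51 ± 0.95, adjusted p = 0.020). Of the 13, 12 were higher on average, and Cd163, a scavenger receptor of resident macrophages, was at a median of 8.15 CPM with PE and 11.7 CPM with saline, with overlap, and was not called. The mean log2 level of the 10 cathepsins minus that of the 13 markers was 2.21 ± 0.151 (SD, n = 3) in uninjured B6 muscle, 2.13 ± 0.136 with saline, 2.18 ± 0.346 with ECM and 2.39 ± 0.119 with PE, and lay between 1.88 and 3.07 over all 24 libraries, while the marker mean spanned 2.63 to 7.33. The part of macrophage number in the cathepsin levels was not tested. r with the marker mean over 24 libraries was highest for Ctsh and Ctsz (0.964 each) and lowest for Ctsc (0.782) and Ctsd (0.852).

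**Figure D4:**
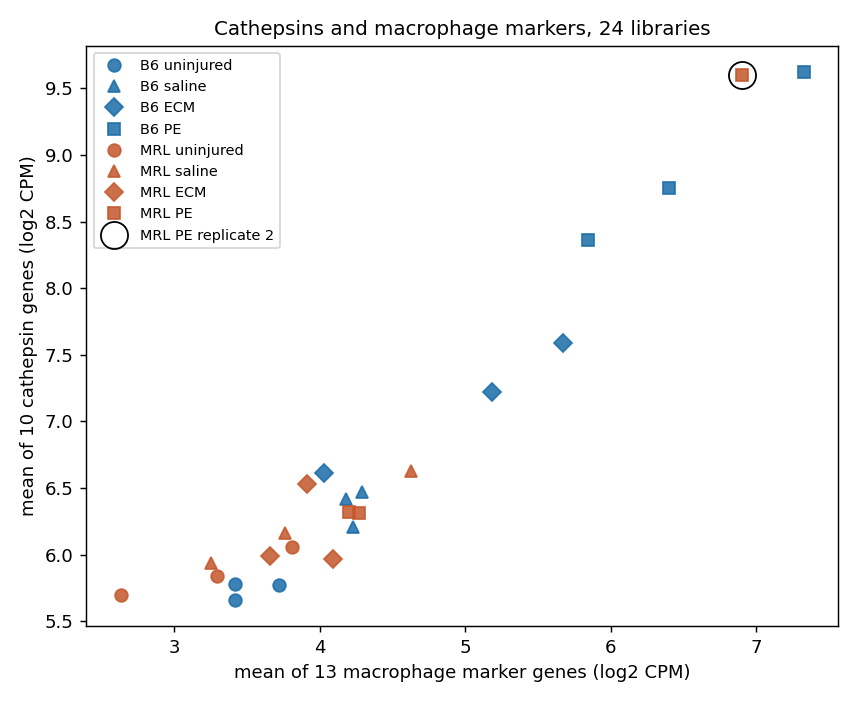
Mean level of the 10 cathepsin genes (vertical axis, log2 CPM) against the mean level of 13 macrophage marker genes (horizontal axis, log2 CPM), with 1 point per library, blue for B6 and orange for MRL and a shape for each treatment. The libraries lie along a band, and the circled MRL PE replicate 2 lies at the B6 PE end of it, 2.70 above its marker mean.

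Other cell types moved too. Neutrophil markers, of which 6 of 10 listed could be measured, summed to between 21.1 and 136 CPM in B6 PE libraries, against 2.18 to 4.65 with saline and 2.92 to 26.8 in MRL PE, and 4 of the 6, against 5.97% of all genes, were called between PE and saline in B6 mice, led by S100a9 and S100a8. Muscle fibre markers summed to between 64840 and 137918 CPM in B6 PE libraries and between 116819 and 227222 with saline, where 0 of 10 were called by limma (adjusted p = 0.055 for the furthest, Myh2), and B6 PE replicate 2, the library with the highest cathepsin sum, had the lowest of these sums. Fibroblast markers summed to between 4461 and 8102 CPM in B6 PE libraries and between 1696 and 3662 CPM with saline, and 0 of them were called. The part of fibroblasts in the cathepsin levels was not tested. Of 10 genes of osteoclasts and of foreign body giant cells, which form by fusion of macrophages, 7 were higher on average with PE than with saline in B6 mice. 4 were called, all higher, against 5.97% of all genes, among them Atp6v0d2, a pump subunit needed for macrophage fusion (6.34 ± 1.44, limma adjusted p = 0.024), and Mmp9, a gelatinase (4.37 ± 0.71, adjusted p = 0.0100). Dcstamp, the fusion receptor, was at 6.17 to 14.4 CPM with PE and no more than 0.160 CPM with saline, close to the level of 3 counts (0.119 CPM). Acp5, the tartrate-resistant acid phosphatase of osteoclasts, was 2.20 ± 0.83 higher with PE and not called (adjusted p = 0.11). Calcr, the calcitonin receptor, and Nfatc1, the transcription factor that drives osteoclast formation, were at medians of 0.431 and 20.4 CPM with PE against 0.709 and 22.7 CPM with saline and were not called. Oscar, an osteoclast receptor, was the other one lower on average, and was not called. In MRL PE the summed level of these genes was 770 CPM in replicate 2 and 130 and 110 CPM in replicates 1 and 3. Acp5 was a large part of the lower sums, at 62.6 to 110 CPM in the MRL PE libraries, above the 25.1 to 57.9 CPM of B6 PE. Dcstamp and Atp6v0d2 were at medians of 0.117 and 3.06 CPM in MRL PE, with highest values of 14.0 and 369 CPM. Between strains with PE 4 of the 10 were higher on average in MRL mice and 0 were called, with 3.35% of all genes called.

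The rest of the lysosome rose with the cathepsins in part. Between PE and saline in B6 mice 14 of 27 hydrolases were called, all higher, where 5.97% of all genes were called, and their median log2 fold change was 1.64. The furthest were Lipa, the acid lipase of cholesteryl esters (4.21 ± 0.84, limma adjusted p = 0.019), Gusb, the beta-glucuronidase (3.19 ± 0.76, adjusted p = 0.026) and Galns, a sulfatase of keratan sulfate (2.95 ± 0.62, adjusted p = 0.020). The lipid-binding activators Psap (2.50 ± 0.54), Gm2a (2.50 ± 0.55) and Npc2 (2.08 ± 0.49), with adjusted p between 0.021 and 0.026, were called as 3 of 3. Of 17 subunits of the proton pump that acidifies the lysosome 9 were called, all higher, among them Atp6v1a (2.24 ± 0.47, adjusted p = 0.020) and Tcirg1, the isoform of osteoclasts and phagocytes (2.74 ± 0.73, adjusted p = 0.036). Atp6v0d2 had the largest difference of the pump list and is also in the list of osteoclast and giant cell genes, so that it is counted in both. Of 14 lysosomal membrane proteins 5 were called and higher, led by Slc11a1, the metal transporter of phagosomes (3.67 ± 0.83, adjusted p = 0.023). Of 11 sorting and transcription factors 2 were called and higher, Grn, or progranulin (2.64 ± 0.62, adjusted p = 0.026), and M6pr, the cation-dependent mannose 6-phosphate receptor (1.36 ± 0.31, adjusted p = 0.023), while the transcription factor Tfec, at 3.24 ± 1.37, was not (adjusted p = 0.15). The median log2 fold change was 0.73 for the membrane proteins, 1.28 for the pump and 0.83 for the sorting and transcription factors, against 2.34 for the cathepsins and 0.02 for all genes. Without replicate 1 or 2 of B6 PE or any 1 of the B6 saline libraries these counts fell as those of the cathepsins did. Without replicate 2 of MRL PE 20 hydrolases and 14 pump subunits were called, counts given without the share of all genes in that fit.

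Inhibitors of the cathepsins were measured for 7 of 19 listed genes. Cstb, the cytosolic cystatin B, was higher with PE than with saline in B6 mice by 3.25 ± 0.67 (limma adjusted p = 0.020), and Serpina3g, an inhibitor of cathepsins K, L and S inside cells, by 3.12 ± 0.91 (adjusted p = 0.048). Serpinb9, better known as an inhibitor of granzyme B, was also called as higher. Cst6, a secreted cystatin, was lower, by -1.59 ± 0.36 (adjusted p = 0.023). Cst3, the abundant secreted cystatin C, differed by 0.42 and was not called (adjusted p = 0.25).

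Of 13 other cathepsins looked for, the matrix held Ctse, Ctsf and Ctso. Ctsf, a cysteine protease of many tissues including muscle, stood at 4.20 ± 0.17 log2 CPM (SD, n = 3) in B6 PE and 5.33 ± 0.07 in MRL PE, and was higher in MRL mice by 1.13 ± 0.18 (limma adjusted p = 0.00062). Ctse, an aspartic protease of endosomes in immune and epithelial cells, was higher in PE-treated MRL than B6 mice by 3.01 ± 0.73 (adjusted p = 0.024), at 1.70 ± 1.45 against -1.31 ± 0.39, a low level at which all 3 ECM-treated B6 libraries were at a count of 0. Neither gene was higher in MRL mice with PE alone. Mean Ctsf was also higher in MRL than B6 mice without injury (4.95 against 4.57), with saline (4.98 against 4.40) and with ECM (4.84 against 4.38). Mean Ctse was at -0.95 against -2.41, -0.39 against -2.62 and -0.19 against -3.65 in the same order. With ECM limma called 1 of the 3 as higher in MRL mice, and 2.66% of all genes, while without injury and with saline it called 0. Ctso was at 4.46 ± 0.42 in B6 PE and 4.49 ± 0.44 in MRL PE, and was higher with PE than in uninjured MRL muscle by 1.06 ± 0.30 (adjusted p = 0.046), as was Ctse, by 2.65 ± 0.73 (adjusted p = 0.045). None of the 3 was called between PE and saline in B6 mice, where limma gave 1.31 ± 0.73 for Ctse (adjusted p = 0.26), 0.88 ± 0.30 for Ctso (0.082) and -0.20 for Ctsf (0.52).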

How the data were processed

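Bulk polyA-selected RNA was sequenced from 24 quadriceps samples. The authors pseudoaligned reads with kallisto to the Ensembl GRCm39 cDNA, summed transcripts to genes with tximport (lengthScaledTPM), kept genes above 1 CPM in at least 3 libraries, applied TMM normalization with edgeR and deposited log2 CPM values. Total reads per library are not in these values and were not used here. Linear CPM was recovered by subtracting the prior (0.0795 CPM). The lowest value, -3.65, is a count of 0, 3 counts are 0.119 CPM at the mean effective library size, and this floor covers counting error only. 1 row without a symbol was left out of 14160.

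limma 3.58.1 (R 4.3.3) was fitted to the deposited values with 1 coefficient per group over all 24 libraries, a variance trend, 2-sided tests and Benjamini-Hochberg adjustment over 14159 genes in each of 19 comparisons. The labels do not say whether libraries of a group came from separate mice, and the study calls its samples independent; p-values measure the spread between these libraries. Replicate numbers were checked for pairing by the correlation of residuals of libraries with the same number. All 3 correlations were above 0.1 between strains with PE (0.105, 0.532 and 0.439), which is a hint from the data, and in no other comparison. Alternatives were log2(CPM + 1), a mean log2 CPM of at least 1, quantile normalization, equal library totals, only the groups compared, library quality weights (gene by gene, since the default estimate did not converge), a replicate block and each library left out, of which those outside the groups compared were chosen after seeing the data. Named are the 10 members, the list genes with the largest differences between PE and saline in B6 mice, the most alike genes and other cathepsins; Cst3, Serpinb9, Acp5, Tfec, Cd163, Calcr, Nfatc1, Oscar and uncalled member differences other than the largest were chosen after their values were seen. Members and gene lists were chosen with earlier results of these data known. The other lists (eosinophil, dendritic, T, B, mast, endothelial, fibroblast and adipocyte markers) had 0 members called between PE and saline in B6 mice. Gene positions and transcript lengths are from GENCODE vM39 (GRCm39), and promoters from RefSeq (GRCm38.p6).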

Additional observations from a re-analysis of the deposited data

How the results depend on the processing

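The number of cathepsins called between PE and uninjured B6 muscle was 10 in the main analysis and under each alternative scale, filter, normalization, weighting and block, and between 8 and 10 with 1 library left out. Counts moved elsewhere, and the cause was not tested. Where no share of all genes stands beside a count below, it shows only how far the main count moved. Such a count is not a result about the cathepsins in particular. With only the groups compared, 1 was called for PE against ECM in B6 mice, 4 for ECM against uninjured in B6 mice, 0 for PE against uninjured in MRL mice and 1 for MRL against B6 mice without injury. With library quality weights, 10 were called for PE against ECM and 6 for ECM against uninjured in B6 mice, 1 for saline against uninjured in B6 mice, 1 each for PE against saline and against ECM and 2 for PE against uninjured in MRL mice, 6 and 10 between strains with ECM and PE, and 9 and 4 for the interactions of PE against saline and against ECM. These weights also raised the share of all genes called, to 26.3%, 17.5%, 7.60%, 19.9%, 14.6%, 16.5%, 15.3%, 45.7%, 13.5% and 7.15% in the same order, so that the counts of 1 and 2 lie near or below it. For PE against uninjured in MRL mice log2(CPM + 1) gave 2, quantile normalization 0 and the replicate block 0, and between strains with PE they gave 1, 3 and 1; the block changed no other count by over 1.5 times. Leaving out 1 library gave 0 to 10 for PE against saline, 0 to 9 for PE against ECM and 0 to 5 for ECM against uninjured in B6 mice, 0 to 5 for PE against ECM and 0 to 9 for PE against uninjured in MRL mice, 0 to 4 and 0 to 10 between strains with ECM and PE, and 0 to 9 and 0 to 3 for the interactions of PE against saline and against ECM, and 0 in the other comparisons. Fold changes reversed in 3 cases, all in MRL mice and not called. With 1 library left out, Ctsk between PE and ECM lay between -0.10 (without MRL PE replicate 2) and 3.40, and Ctss between PE and saline between -0.92 (without the same library) and 2.46, or at -0.57 with library quality weights. Equal library totals moved the median of all genes by up to 0.406 and quantile normalization by up to -0.178, and neither turned a called cathepsin. With 3 libraries per group and a standard error of 1.11, large differences of Ctss and Ctsk could go uncalled in the fit over all 24 libraries. Ctss was not called at 4.0 log2 (ECM against uninjured in B6 mice) or at -3.91 (between strains with PE). Ctsk was not called at 2.76 (PE against ECM in B6 mice).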
